A study of Mus musculus with 16 samples.

Results

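Hepcidin and 7 genes of iron handling were followed across 16 RNA-sequencing libraries of mouse stomach. The 8 genes were taken by symbol from a count table of 24964 genes. They are Hamp, which encodes hepcidin, and Slc40a1, Tfrc, Slc11a2, Fth1, Ftl1, Hfe and Ireb2. All 8 passed the filter on low counts that left 15385 genes for testing, but Hamp did not pass it when only the S groups, or only the TTP groups, were fitted. Hamp was selected on its CPM, which stood below WT-A in TTP-A, and the other 7 were selected on function. The values of Hamp in the A groups, and the values of all 8 genes between TTP-A and WT-A, are therefore given as description, and no test of them is read.

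Hepcidin is a peptide hormone, made mainly by the liver, that binds the iron exporter ferroportin and causes its degradation, so that less iron leaves cells. In the stomach, hepcidin has been described in the acid-secreting parietal cells of the corpus. Transcription of the hepcidin gene is driven by bone morphogenetic protein (BMP) signalling through SMAD proteins and by interleukin 6 through STAT3. Inside cells, iron regulatory proteins bind hairpins in messenger RNA called iron-responsive elements. Bound at the 5′ end of a ferritin or ferroportin transcript they block translation, and bound in the 3′ UTR of the transferrin receptor transcript they protect it from decay.

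Mice were female and 8 weeks old. WT is C57BL/6, and TTP stands for congenic C57BL/6 mice of the genotype TTPΔARE. Tristetraprolin (TTP, gene Zfp36) is a protein that binds AU-rich elements in messenger RNA and speeds its decay, and the allele lacks such an element in the Zfp36 transcript itself. Group A mice had gastric inflammation induced by adrenalectomy, which removes the adrenal glands and with them the source of glucocorticoids. The treatment label of group S names SPEM (spasmolytic polypeptide-expressing metaplasia), a mucous lineage of injured corpus glands. What S stands for, and whether S mice were operated on, is not given in the sources used here. The tissue was a 4 mm biopsy taken from the corpus at its lesser curvature, and each of the 4 groups has 4 libraries (WT-S and WT-A, TTP-S and TTP-A). The labels do not state beyond the sample titles that replicates came from separate mice, so p-values measure the spread between these libraries.

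Library totals ranged from 17453930 to 25849472 counts. Levels are CPM, the counts relative to a library total scaled by the trimmed mean of M-values. Zfp36 lay at 55.1 to 65.8 CPM (WT-S), 63.2 to 88.6 (WT-A), 115 to 129 (TTP-S) and 110 to 131 (TTP-A). WT-A 3 and WT-A 4 stood apart from the other 14 libraries. Their deviation from the median library followed transcript GC content with a Spearman rho of 0.73 and 0.76 across 11493 genes, against at most 0.31 in absolute value elsewhere. Genes are not independent replicates, and these correlations are descriptive. Values of WT-A against WT-S are therefore set beside those of a fit with the 14. WT-A then keeps 2 libraries, and their spread is pooled with that of the other groups. Parietal markers were abundant in every library, at a summed 16200 to 24200 CPM for 10 genes led by Atp4a. The 10 hepatocyte markers summed to 1380 to 1950 CPM, nearly all of it Apoa1 (group means of 1440 to 1600 CPM), followed by Ttr (31.2 to 51.5 CPM) and Ahsg (4.81 to 8.67 CPM). Alb reached at most 73 counts in a library, Apoa2 28, Serpina1a 16, Tat 14, Cps1 5, Fgb 4 and Cyp3a11 2.

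Iron-responsive elements were located in the GENCODE M21 transcripts (mouse build GRCm38) to show which members carry the hairpin. The pattern was a C, 5 bases, the loop CAGTG with any base but G after it, and 5 bases that pair back (G with T allowed). It was searched on the transcript strand. It occurs in 0.0768% of 20826 annotated 5′ UTRs and in 0.402% of 20876 3′ UTRs. In the following sequences, capitals mark the loop. Those of Slc40a1, Fth1 and Ftl1 lie in the 5′ UTR and the 4 of Tfrc in the 3′ UTR.
Slc40a1: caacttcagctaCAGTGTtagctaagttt
Fth1: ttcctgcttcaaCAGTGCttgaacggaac
Ftl1: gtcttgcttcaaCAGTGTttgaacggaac
Tfrc 1: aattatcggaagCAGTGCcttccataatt
Tfrc 2: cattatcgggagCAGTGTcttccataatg
Tfrc 3: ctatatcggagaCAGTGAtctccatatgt
Tfrc 4: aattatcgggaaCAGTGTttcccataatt
No match was found in the UTRs of Hamp, Slc11a2, Hfe or Ireb2. For Slc11a2, known as a carrier of such an element, this says only that this strict pattern is not in the transcript searched. The sites printed for Tfrc and the others are likewise those of the strict pattern. Elements with another loop or imperfect pairing would be missed.

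The heptamer TATTTAT, the core of the sequence that TTP binds, was searched on the transcript strand of the same 3′ UTRs, because the genotype bears on this protein. It is present in the 3′ UTR of Hamp, which is 109 bases long. Among 3′ UTRs within 1.5 times that length, 2.77% hold it. It is not in the 136-base 3′ UTR of Hamp2, a neighbouring copy of Hamp. Slc40a1 has 1 match and Tfrc has 2, in 3′ UTRs whose length class holds the heptamer in 31.7% and 47.1% of cases. Fth1, Ftl1, Hfe, Ireb2 and Slc11a2 have none. A match is a description of letters. Binding by TTP, decay of these transcripts and any link to their levels were not tested. Capitals mark the heptamer in the sites of Hamp, Slc40a1 and Tfrc.
Hamp: ctcaaccccatTATTTATtcctgccctcc
Slc40a1: tccttagcagaTATTTATtatctactgga
Tfrc 1: tggcactgagaTATTTATtgtttatttat
Tfrc 2: tatttattgttTATTTATcagtgacagag

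Hamp and Hamp2 lie 17686 bases apart on the minus strand of chromosome 7, at chr7:30942368-30944032 and chr7:30922372-30924681 (GRCm38). Hamp2 is no member of the set, but its transcript is nearly the same: 388 of 410 aligned bases (94.6%) are identical to the Hamp transcript. The longest exact run they share is 87 bases. Stretches of 50 bases of Hamp occur unchanged in Hamp2 for 16.6% of start positions, stretches of 75 bases for 3.9%, and stretches of 100 bases for none. How the authors' counting treated reads that fit both is not given in the sources used here, so counts of the pair may be partly mixed. Their promoters, 250 bases before to 50 after the start site, are shown because the copies were measured at very different levels (RefSeq, GRCm38.p6, minus strand). They match at 276 of 297 aligned bases. Capitals mark the BMP response element GGCGCC and the STAT site TTCNNNGAA, both searched on both strands. Each motif reads the same on either strand.
Hamp, chr7:30943980-30944279: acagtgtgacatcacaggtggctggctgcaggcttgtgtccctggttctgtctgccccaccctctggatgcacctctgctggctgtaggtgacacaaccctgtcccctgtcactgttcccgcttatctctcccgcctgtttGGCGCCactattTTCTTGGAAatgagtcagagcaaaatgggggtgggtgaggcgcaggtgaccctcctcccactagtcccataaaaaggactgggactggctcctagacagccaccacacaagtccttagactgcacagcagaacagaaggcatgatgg
Hamp2, chr7:30924132-30924431: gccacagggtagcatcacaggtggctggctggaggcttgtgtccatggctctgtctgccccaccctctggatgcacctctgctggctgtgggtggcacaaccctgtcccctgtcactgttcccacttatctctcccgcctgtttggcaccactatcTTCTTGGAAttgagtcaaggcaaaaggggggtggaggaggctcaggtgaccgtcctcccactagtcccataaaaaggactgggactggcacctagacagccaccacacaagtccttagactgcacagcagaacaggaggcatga
In Hamp the BMP element ends 104 bases before the start site and the STAT site 89 bases before it. Hamp2 keeps the STAT site, 86 bases before its start, and has the substitution G4A in the aligned hexamer, counted from the first base of GGCGCC. The BMP element occurs in 11.9% and the STAT site in 8.3% of 32851 mouse promoters of this length. A match is a description of letters and not evidence of a bound site.

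Hamp itself was a rare transcript in every group. In WT-S the 4 libraries held 13, 9, 6 and 2 counts, or 0.728, 0.382, 0.264 and 0.102 CPM. In WT-A they held 54, 67, 29 and 37 counts, or 1.95, 2.31, 1.13 and 1.61 CPM. In TTP-S the counts were 3, 5, 3 and 4, or 0.122, 0.206, 0.148 and 0.197 CPM. TTP-A gave 21, 7, 13 and 3 counts, or 0.954, 0.338, 0.624 and 0.139 CPM. All 4 WT-A libraries stood above the other 12, while TTP-A overlapped both S groups. A count of 3, the limit that a count of 0 would allow, corresponds to 0.168 CPM in WT-S 1. Several S libraries and TTP-A 4 lie at or near that limit.

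Hamp averaged 1.75 ± 0.502 CPM over WT-A (SD, n = 4) and 0.514 ± 0.355 CPM over TTP-A (SD, n = 4). The fitted difference that chose the gene, TTP-A against WT-A, was a log2 value of -1.76 (SE 0.44), or -2.04 with 14 libraries and -2.54 with voom, another model, which weights the libraries. Of the 15385 genes tested, 5.17% were called between these groups, and 6.22% lay wholly lower in TTP-A without overlap. WT-A against WT-S differed by 2.26 (SE 0.47; 2.54 with 14 libraries, 2.95 with voom), and TTP-A against TTP-S by 1.59 (SE 0.58; 0.94 with voom). The difference of those differences was -0.67 (SE 0.80), and -2.02 (SE 0.74) with voom. Nothing is read from these values, since all use groups on which the gene was chosen.

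Between the S groups, which the choice did not use, Hamp passed the filter only through its WT-A counts, so no test is read there either. TTP-S averaged 0.168 ± 0.04 CPM and WT-S 0.369 ± 0.265 CPM (SD, n = 4 each). The log2 difference was -1.09 (SE 0.61), from 15 counts in all of TTP-S and 30 in all of WT-S, of which 13 came from WT-S 1. With voom it was -0.52 (SE 0.60).

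Of the pair, Hamp2 was the more abundant transcript as counted in these biopsies. Its product and what that product does to ferroportin were not measured. Levels in WT-S were 36.7, 55.1, 50.2 and 52.7 CPM. In WT-A they were 27.3, 25.8, 33.5 and 37.4 CPM, with 1 library, WT-A 4, inside the WT-S range. TTP-S gave 45.3, 51.3, 44 and 43.8 CPM. TTP-A gave 32.2, 55.8, 35.8 and 36.7 CPM, with TTP-A 2 above every other library.

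From WT-S to WT-A, Hamp2 fell by 0.65 on the log2 scale (SE 0.17, adjusted p = 0.0157, edgeR). The difference was -0.88 with 14 libraries (adjusted p = 0.0122). Without WT-S 2 it was -0.58 and missed the threshold of 0.05 (adjusted p = 0.0571). In TTP mice the A against S difference was -0.20 (SE 0.16, adjusted p = 0.647), and the interaction was 0.45 (SE 0.23, adjusted p = 0.36), so no difference between genotypes was shown. TTP-S against WT-S gave -0.08 (adjusted p = 0.998). In the same WT comparison 7 of 10 parietal markers were called lower, with a median log2 difference of -0.40 (8 of 10 and -0.48 with 14 libraries). Their sum ranged from 19800 to 23800 CPM over WT-S and from 16200 to 24200 CPM over WT-A. The part of these markers in the Hamp2 difference was not tested. In a bulk biopsy, fewer cells of a type and less RNA per cell cannot be told apart.

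Because the pair may share reads, the Hamp share of their summed counts was also computed per library, with exact Clopper-Pearson 95% intervals that cover counting error only. In WT-A the share was 6.67% (5.05 to 8.61), 8.22% (6.43 to 10.3), 3.26% (2.2 to 4.65) and 4.12% (2.92 to 5.63). WT-S shares ran from 0.194% to 1.95%, TTP-S shares from 0.267% to 0.447% and TTP-A shares from 0.377% to 2.88%. These shares use the Hamp counts of the A groups and are given as description only.

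**Figure D1:**
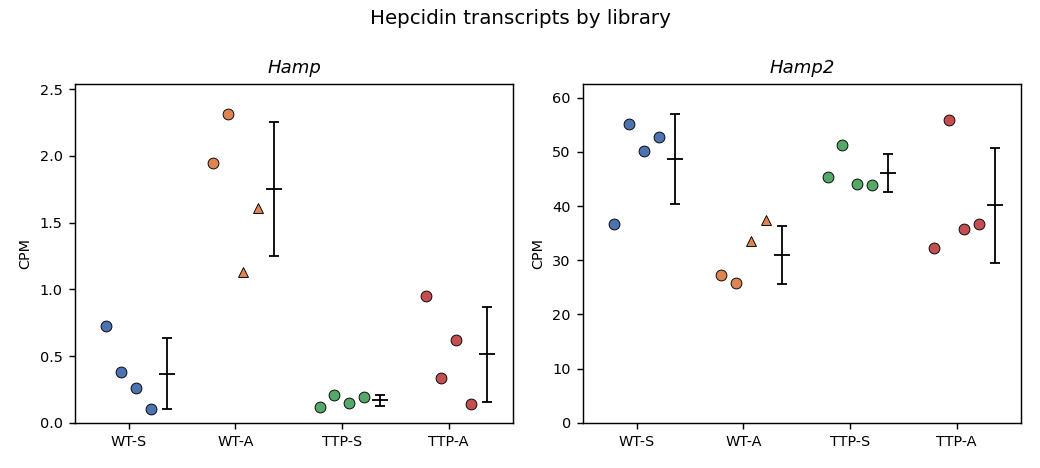
Level of Hamp (left) and Hamp2 (right) in CPM, on separate linear axes from 0. Each point is a library, triangles are WT-A 3 and WT-A 4, and bars give mean and SD of 4 libraries. Hamp is highest in the 4 WT-A libraries (1.13 to 2.31 CPM), where Hamp2 lies at 25.8 to 37.4 CPM.

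Transcripts of different length were compared as CPM per kilobase of the principal transcript. In WT-S the ferritin heavy chain Fth1 led at 1980 ± 111, ahead of the light chain Ftl1 at 717 ± 24.6 and Hamp2 at 111 ± 18.9 (SD, n = 4 each, as are the next values). Tfrc followed at 29.6 ± 4.09 and Ireb2 at 8.98 ± 0.443. Slc11a2 at 3.98 ± 0.147 and Hfe at 3.67 ± 0.392 did not differ beyond their spread. Slc40a1 stood at 1.82 ± 0.465 and Hamp at 0.9 ± 0.647, which also lie within about their spread of each other. The order held in the other groups except in WT-A, where Hamp at 4.27 ± 1.23 lay level with Slc11a2 at 4.26 ± 0.335 and Hfe at 4.24 ± 0.197.

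**Figure D2:**
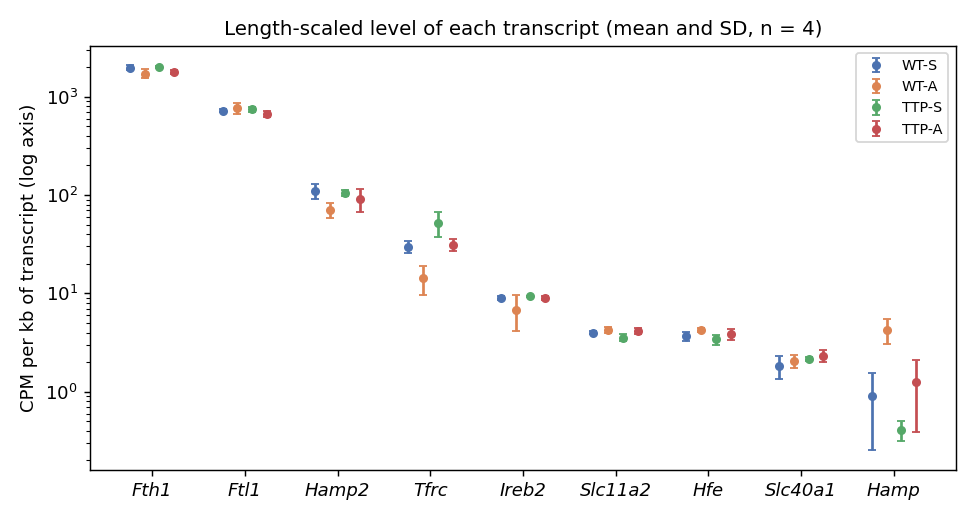
Mean level of each transcript in CPM per kilobase (log axis) with SD over 4 libraries, by group. The iron stores Fth1 and Ftl1 are the most abundant, and Hamp is the lowest in WT-S, TTP-S and TTP-A but not in WT-A.

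Of the 7 members other than Hamp, 1 was called in WT-A against WT-S, where 18.8% of all genes were called. None was called in TTP-A against TTP-S (2.9% of all genes), in TTP-S against WT-S (0.0325%) or for the interaction of genotype and treatment (0.0585%). Called means an adjusted p under 0.05 in the edgeR quasi-likelihood test, with adjustment over all genes. Tfrc was also the member of the 7 whose WT-A libraries all lay below WT-S, as for 8.48% of all genes. In TTP-S against WT-S none of the 7 was without overlap (6.74% of all genes). At an unadjusted p under 0.05 the members numbered 2, 3, 1 and 1 in these 4 comparisons, against 5620, 2440, 1153 and 2344 genes of the table. The share of members called in WT mice is near that of the table. The comparisons share groups: WT-S serves in the WT comparison and the S comparison, and TTP-S in the TTP comparison and the S comparison.

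Tfrc encodes transferrin receptor 1, which takes up transferrin-bound iron, and was the called member. In WT-S its levels were 117, 157, 143 and 162 CPM. WT-A gave 86.8, 90.2, 43.9 and 58.8 CPM, all below every WT-S library. Tfrc thus fell in WT-A by 1.05 on the log2 scale (SE 0.23, adjusted p = 0.00848), to 0.483 of its WT-S level. Leaving out any 1 of the 8 libraries kept the call, with values of -1.20 to -0.88. The 2 lowest libraries are those that stand apart by GC content, and the Tfrc transcript is poor in GC (39.8%). Without both of them the difference was -0.71 (SE 0.23) and missed the threshold (adjusted p = 0.0648). With offsets for transcript GC content it was -0.62 and remained called (adjusted p = 0.0363). Between the same WT groups 7 of 10 parietal genes (median -0.40) were also called lower. Of 5 chief cell genes 3 were called lower and 1 higher (-0.68). Called higher were 4 of 5 smooth muscle genes (0.38), 3 of 6 mucous neck and SPEM genes (0.75) and 3 of 8 macrophage genes (0.27). So were 2 of 5 enterocyte genes (0.33) and 1 of 8 squamous genes (3.03). The part of these cell types in the values of Tfrc and Fth1 was not tested.

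In TTP mice the Tfrc libraries were more spread. TTP-S gave 311, 268, 147 and 301 CPM, and TTP-A gave 121, 160, 166 and 160 CPM, with the library TTP-S 3 inside the range of TTP-A. TTP-A against TTP-S was -0.76 (SE 0.23) and missed the threshold (adjusted p = 0.0898). With 14 libraries the same value passed it (SE 0.18, adjusted p = 0.0285), and without TTP-S 3 it was -0.95 and passed it as well (adjusted p = 0.0374). The WT and TTP differences of A against S were not shown to differ, since the interaction was 0.29 (SE 0.33, adjusted p = 0.666) and changed sign to -0.05 with 14 libraries.

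TTP-S against WT-S gave 0.83 for Tfrc (SE 0.23), with an unadjusted p of 0.00253 and an adjusted p of 0.304 by edgeR. The adjusted p was 0.0744 with 14 libraries and 0.0427 with the DESeq2 Wald test. The groups overlapped through TTP-S 3. As description only, all TTP-A libraries lay above WT-A (5.99% of all genes did), by 1.12 (SE 0.23), or 0.78 with 14 libraries.

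Slc11a2 encodes the divalent metal transporter DMT1, which carries ferrous iron across membranes. Its levels kept to a narrow band of 13.9 to 20.3 CPM over all libraries. The mean was 17.6 ± 0.65 CPM for WT-S and 18.8 ± 1.48 CPM for WT-A, and 15.7 ± 1.32 CPM for TTP-S and 18.4 ± 1.31 CPM for TTP-A (SD, n = 4 each). WT-A against WT-S was 0.10 (SE 0.08, adjusted p = 0.372; 0.00 with 14 libraries) and TTP-A against TTP-S 0.23 (SE 0.08, adjusted p = 0.132). The latter passed the threshold without TTP-A 2, at 0.28 (adjusted p = 0.0488). TTP-S against WT-S was -0.16 (SE 0.08, adjusted p = 0.681).

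Fth1, the ferritin subunit that oxidises iron for storage, had a lower mean in A than in S in both genotypes, called in neither by edgeR with 16 libraries and no GC offsets. WT-S levels were 1710, 1960, 1810 and 1850 CPM, and WT-A levels 1460, 1470, 1650 and 1830 CPM. The 2 WT-A libraries that stand apart by GC content are the 2 higher ones, and WT-A 4 lies within the WT-S range. WT-A against WT-S was -0.20 (SE 0.07) and missed the threshold (adjusted p = 0.0652). With 14 libraries it was -0.33 (SE 0.06) and passed (adjusted p = 0.00793), as it did with GC offsets at -0.29 (adjusted p = 0.00569). It also passed with DESeq2 (-0.20, adjusted p = 0.029), with voom (-0.30, adjusted p = 0.00186), without WT-S 1 (adjusted p = 0.0476) or without WT-A 4 (adjusted p = 0.0142). With 14 libraries Fth1 was the 1 member called, when 10.4% of all genes were called. With GC offsets, DESeq2 or voom both Tfrc and Fth1 were called, when the share of all genes was 15.4%, 22.9% and 19.5%.

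TTP-S levels of Fth1 were 1880, 1940, 1820 and 1860 CPM, and TTP-A levels 1560, 1780, 1670 and 1630 CPM. All 4 TTP-A libraries lay below TTP-S, and Fth1 was the member of the 7 whose groups did not overlap here, and 6.77% of all genes lay wholly lower in this way. The difference was -0.18 (SE 0.07) and was not called by edgeR (adjusted p = 0.226). With voom it was -0.19 and passed (adjusted p = 0.00739), where 15.2% of all genes were called. TTP-S against WT-S was 0.03 (SE 0.07, adjusted p = 0.998).

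Ftl1, the ferritin light chain, which helps form the iron core, was called in no tested comparison by edgeR. It averaged 694 ± 23.8 CPM over WT-S and 738 ± 87.2 CPM over WT-A, then 720 ± 44.4 CPM over TTP-S and 651 ± 46.6 CPM over TTP-A (SD, n = 4 each). WT-A 1 and WT-A 2 held 647 and 682 CPM, and WT-A 3 and WT-A 4 held 825 and 799 CPM. WT-A against WT-S was accordingly 0.09 (SE 0.08, adjusted p = 0.422) with 16 libraries and -0.06 with 14, a change of sign. TTP-A against TTP-S was -0.15 (SE 0.08, adjusted p = 0.393) by edgeR. With voom it was -0.17 and passed the threshold (adjusted p = 0.0383), where 15.2% of all genes were called. The Ftl1 transcript is rich in GC (58.1%).

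Slc40a1 encodes ferroportin, the exporter on which hepcidin acts. Its 16 libraries spanned 3.86 to 8.69 CPM, with WT-S 1 the lowest. WT-S averaged 6.13 ± 1.57 CPM, WT-A 6.9 ± 1.09 CPM, TTP-S 7.2 ± 0.34 CPM and TTP-A 7.85 ± 1.14 CPM (SD, n = 4 each). No difference was called: WT-A against WT-S was 0.17 (SE 0.17, adjusted p = 0.486; 0.35 with 14 libraries, adjusted p = 0.249), TTP-A against TTP-S 0.12 (SE 0.17, adjusted p = 0.822) and TTP-S against WT-S 0.23 (SE 0.17, adjusted p = 0.885). These are transcript levels, while hepcidin acts on the ferroportin protein, which was not measured.

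Hfe encodes a membrane protein that takes part in the sensing of transferrin-bound iron upstream of hepcidin. It ranged from 11 to 16 CPM, with a mean of 13.1 ± 1.4 CPM for WT-S, 15.1 ± 0.705 CPM for WT-A, 12.2 ± 1.42 CPM for TTP-S and 13.7 ± 1.7 CPM for TTP-A (SD, n = 4 each). A against S was 0.20 (SE 0.10, adjusted p = 0.159; 0.19 with 14 libraries) in WT and 0.17 (SE 0.10, adjusted p = 0.491) in TTP mice.

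Ireb2 encodes iron regulatory protein 2, which binds the iron-responsive elements printed above. WT-S levels were 48.3, 54.1, 53.2 and 51.7 CPM. WT-A levels were 55.9, 49.5, 26.7 and 25.5 CPM, so the low mean of WT-A rests on WT-A 3 and WT-A 4. TTP-S spanned 53 to 54.5 CPM and TTP-A 49.2 to 54 CPM. WT-A against WT-S was -0.39 (SE 0.19, adjusted p = 0.138) with 16 libraries and 0.02 (adjusted p = 0.852) with 14. Without WT-A 1 it was -0.61 and passed the threshold (adjusted p = 0.0131). The transcript has the lowest GC content of the members (39.0%).

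**Figure D3:**
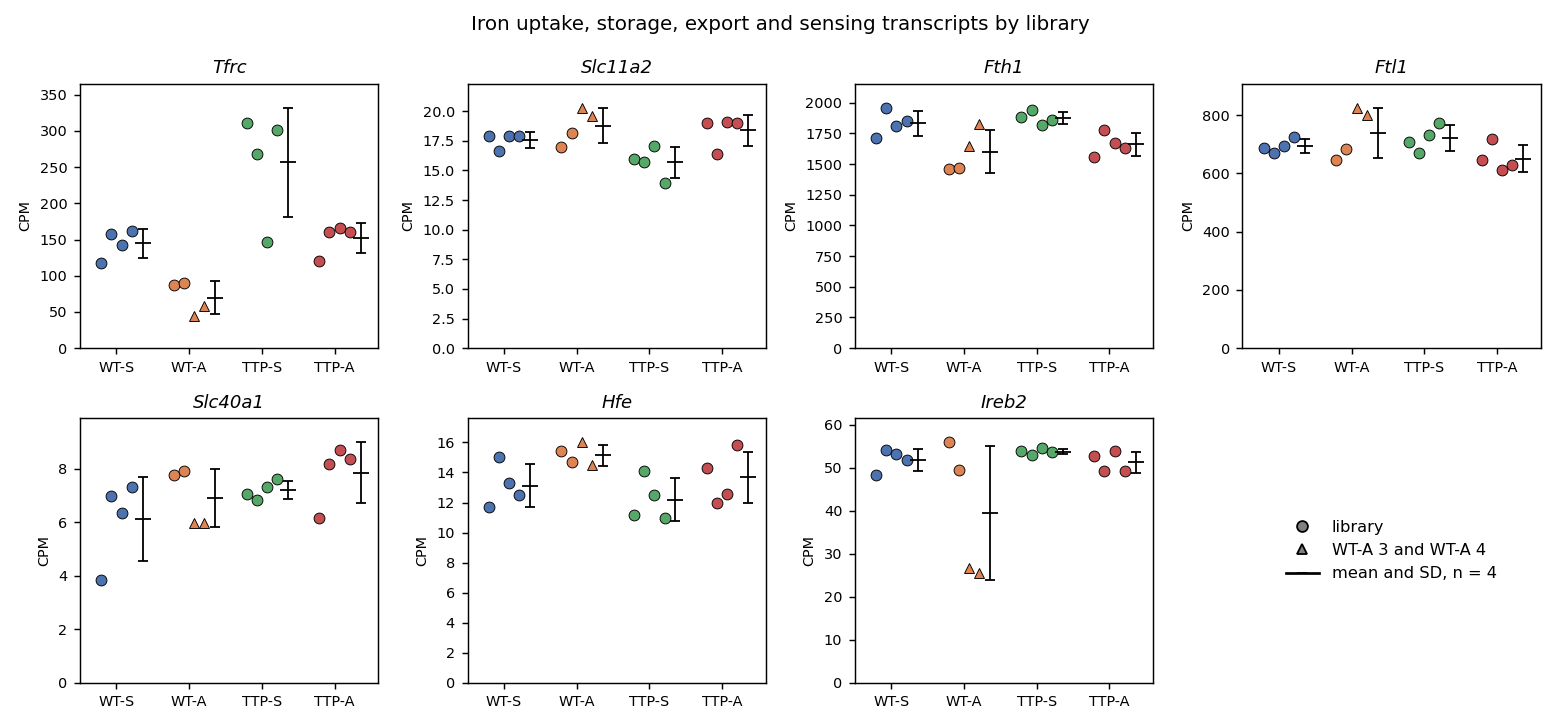
Level of the 7 members other than Hamp in CPM, on linear axes from 0, by group. Circles are libraries, triangles are WT-A 3 and WT-A 4, and bars give mean and SD of 4 libraries. Tfrc lies lowest in WT-A (43.9 to 90.2 CPM), and the triangles account for the low Ireb2 values of 25.5 and 26.7 CPM.

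**Figure D4:**
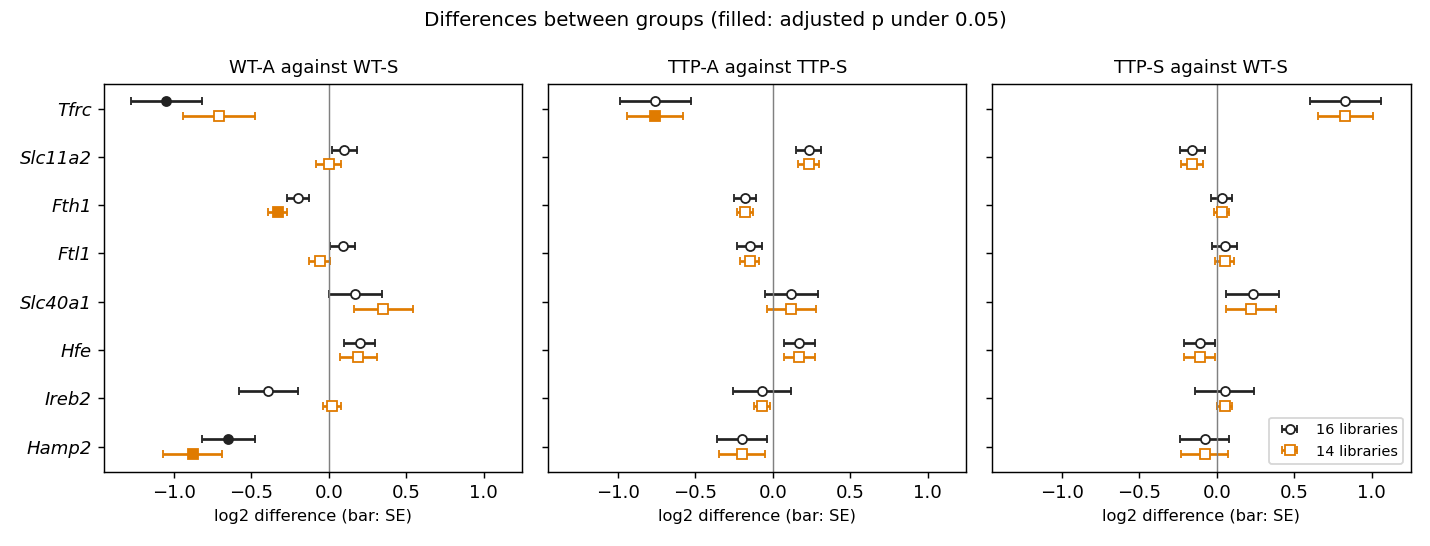
Log2 difference of each member other than Hamp, and of Hamp2, in the 3 pairwise comparisons tested, with 16 libraries (circles) and 14 (squares). Bars are SE and filled symbols have an adjusted p under 0.05. In WT-A against WT-S the Tfrc call at -1.05 is not kept with 14 libraries (-0.71), while Fth1 is called there at -0.33.

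The 7 members were also set against the table by their median. In WT-A against WT-S their median log2 difference was 0.09, against 0.01 for all genes tested, and 0.00 against 0.00 with 14 libraries. In TTP-A against TTP-S it was -0.07 against -0.00, and in TTP-S against WT-S 0.05 against -0.00.

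Regulators of hepcidin and further iron genes were described from lists that hold 83 genes besides Hamp, of which 75 were tested. In WT-A against WT-S, 7 of the 75 rose and 5 fell, where 9.8% of all genes tested rose and 8.99% fell. With 14 libraries 8 list genes were called (10.7%, where 10.4% of all genes were), and 4 of them, Fech, Hamp2, Hp and Ltf, were among the 12. In TTP-A against TTP-S none rose and 2 fell, against 1.55% and 1.35% of all genes. In TTP-S against WT-S and for the interaction none passed. At an unadjusted p under 0.05 there were 12 of the 75 in each (16%), where the table had 7.49% and 15.2%. The medians of the 75 genes were 0.01, -0.06, 0.05 and -0.04 in these 4 comparisons, the first being 0.00 with 14 libraries.

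Among 21 tested genes of hepcidin control, 4 rose and 2 fell in WT-A against WT-S, beside the 9.8% and 8.99% of all genes given above. The risers were the feedback inhibitors of BMP signalling Smad6 (0.25, adjusted p = 0.0151) and Smad7 (0.29, adjusted p = 0.0203), the transcription factor Stat3 (0.26, adjusted p = 0.0299) and its feedback inhibitor Socs3 (0.47, adjusted p = 0.0194). With 14 libraries none of the 4 passed: Smad6 was 0.22 (adjusted p = 0.0531), Smad7 0.28 (0.0632), Stat3 0.11 (0.254) and Socs3 0.36 (0.0927). Leaving out 1 library ended the call of Smad6 for WT-S 2 and of Smad7 for WT-S 2 or WT-A 3. It ended that of Socs3 for WT-S 2, 3 or 4 or WT-A 4 (0.36 to 0.46), and that of Stat3 for WT-S 2, 3 or 4 or WT-A 3 or 4 (0.18 to 0.27). Hamp2 and Neo1 fell. Neo1, the receptor neogenin, lies outside the rule for named genes and completes the count, at -0.23 (adjusted p = 0.0192; -0.19 and 0.101 with 14 libraries). Its call was also lost without WT-S 2, WT-S 4 or WT-A 3 (-0.22 to -0.18). In the same comparison markers of several cell types also differed: 4 of 5 smooth muscle genes (median 0.38), 3 of 6 mucous neck and SPEM genes (0.75) and 3 of 8 macrophage genes (0.27) were called higher. Of 5 chief cell genes 3 were called lower and 1 higher (-0.68). Of 10 parietal cell genes 7 were called lower (-0.40), and 2 of 5 enterocyte genes (0.33) and 1 of 8 squamous genes (3.03) were called higher. The summed CPM of the first 4 lists ranged from 5740 to 6550 (WT-S) and 6770 to 8280 (WT-A) for smooth muscle, 1110 to 3330 and 2760 to 3080 for mucous neck and SPEM, 140 to 176 and 155 to 238 for macrophages, and 78600 to 153000 and 49000 to 104000 for chief cells. The part of these cell types in the values of these regulators was not tested.

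The BMP ligands Bmp2 and Bmp6 and the BMP target Id1 were not called in any comparison. In WT-A against WT-S they gave 0.05 (SE 0.10), -0.10 (SE 0.16) and 0.01 (SE 0.09), and with 14 libraries 0.14, -0.28 and -0.01. Id1 averaged 173 ± 17 CPM over WT-S and 175 ± 5.11 CPM over WT-A (SD, n = 4 each). Il6, Hfe2 (hemojuvelin) and Tmprss6, the protease that cleaves hemojuvelin, were too low to test. Il6 reached at most 6 counts in a library, Hfe2 at most 2 and Tmprss6 at most 18.

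In TTP-A against TTP-S the interleukin 6 receptor gene Il6ra fell by 0.61 on the log2 scale (SE 0.10, adjusted p = 0.00819). It averaged 17.8 ± 2.83 CPM over TTP-S and 11.7 ± 0.328 CPM over TTP-A (SD, n = 4 each), without overlap. The call held whichever of the 8 libraries was left out. WT-A against WT-S gave -0.23 (adjusted p = 0.122; -0.24 with 14 libraries), and the interaction of -0.38 was not called (adjusted p = 0.262). Cd163, the macrophage receptor for haptoglobin-bound hemoglobin, fell by 1.19 (SE 0.23, adjusted p = 0.0154), from 6.84 ± 1.18 to 3 ± 0.812 CPM (SD, n = 4 each). It missed the threshold without TTP-S 2 (-1.07, adjusted p = 0.0622), without TTP-A 1 (-1.05, adjusted p = 0.0628) or without TTP-A 4 (-1.16, adjusted p = 0.0598). In WT mice Cd163 stood at 3.55 ± 0.999 CPM for WT-S and 2.88 ± 0.727 CPM for WT-A (SD, n = 4 each; -0.31, adjusted p = 0.336). TTP-S thus lay above WT-S in all libraries, but that difference of 0.94 was not called (SE 0.22, adjusted p = 0.182), nor was the interaction of -0.88 (adjusted p = 0.24). The summed level of 8 macrophage markers ran from 117 to 161 CPM over TTP-S and from 158 to 186 CPM over TTP-A. That of 5 adipocyte markers ran from 89.5 to 164 CPM over TTP-S and from 47.7 to 83.4 CPM over TTP-A, with 1 called lower (median -0.79). For 4 surface mucous markers it ran from 55800 to 60100 and from 29800 to 52900 CPM, with 1 called lower (-0.54). For 6 mucous neck and SPEM markers it ran from 1160 to 1500 and from 1630 to 4150 CPM, with 2 called higher (0.31), and 1 of 5 chief cell markers was called higher (-0.05). The part of these cell types in the Il6ra and Cd163 values was not tested.

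Of 5 tested carriers of iron, heme or hemoglobin outside cells, Hp and Ltf rose in WT-A against WT-S (9.8% of all genes rose). The others were not called: transferrin (Trf) gave 0.08, hemopexin (Hpx) -0.09 and lipocalin 2 (Lcn2) 0.12, or -0.28, -0.19 and -0.17 with 14 libraries. Hp, haptoglobin, which binds free hemoglobin, rose from a WT-S mean of 3.08 ± 0.606 CPM to a WT-A mean of 6.88 ± 0.984 CPM (SD, n = 4 each; log2 1.17, SE 0.22, adjusted p = 0.00436). It passed whichever of the 8 libraries was left out, and with 14 libraries (1.30, adjusted p = 0.00864). In TTP mice the TTP-S mean was 3.86 ± 1.22 CPM and the TTP-A mean 2.55 ± 0.676 CPM. The interaction was -1.76 (SE 0.32, adjusted p = 0.0674), and with 14 libraries it was -1.90 and called (adjusted p = 0.0376).

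Ltf, the iron-binding protein lactoferrin, rose by 5.34 on the log2 scale (SE 1.05, adjusted p = 0.00479), and by 5.90 with 14 libraries. Leaving out 1 library kept the call and gave 4.34 (without WT-A 2) to 6.61 (without WT-S 4). It was spread widely within WT-A, at 18.7 ± 19.4 CPM against 0.469 ± 0.577 CPM for WT-S (SD, n = 4 each). Squamous markers, which a corpus biopsy can carry from the forestomach, summed to 49.5 to 997 CPM over WT-A and 1.61 to 243 CPM over WT-S. Their part in the Ltf and Hp values was not tested. Neutrophil markers summed to 0.127 to 0.784 CPM over WT-S and 0.433 to 1.4 CPM over WT-A, with 1.4 CPM the most in any library. All of them were too low to test, and their part in the Ltf and Hp values was not tested either.

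Of 23 genes of heme and mitochondrial iron, 1 rose and 1 fell in WT-A against WT-S, where 18.8% of all genes were called. Hmox1, heme oxygenase 1, which releases iron from heme, gave 0.68 (SE 0.23, adjusted p = 0.048). Its call was lost with 14 libraries at the same 0.68 (adjusted p = 0.133) and for 6 of the 8 libraries left out in turn (0.56 to 0.74). Fech, ferrochelatase, which inserts iron into heme, fell by 0.20 (SE 0.06, adjusted p = 0.0252), and by 0.27 with 14 libraries (adjusted p = 0.00864), though the call was lost without WT-S 2, WT-S 4, WT-A 2 or WT-A 3 (-0.20 to -0.16). Cdc14a, a phosphatase transcript listed for a 3′ iron-responsive element, gave -0.36 (adjusted p = 0.0193) and lost its call with 14 libraries (-0.23, adjusted p = 0.15), without WT-S 4 (-0.31) and without WT-A 3 (-0.30). Markers of several cell types differed in WT-A against WT-S, as given above. Their part in the Hmox1, Fech and Cdc14a values was not tested. The adult globin genes Hbb-bs, Hbb-bt, Hba-a1 and Hba-a2 are listed at 0 in all libraries.

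The genes whose pattern was most like that of Hamp over the 16 libraries were Dll4 (Pearson r = 0.92, Spearman rho = 0.83), Stn1 (0.89 and 0.80), Gpx2 (0.88 and 0.81), Tcf19 (0.88 and 0.83) and Sox9 (0.88 and 0.79). Without WT-A 1 and WT-A 2, the libraries farthest from the median of Hamp, r was 0.83 to 0.87. Tfrc was most like Etfdh (0.94), Hsdl2 (0.93) and Cd36 (0.93), with r of 0.84 to 0.89 without WT-A 3 and WT-A 4. For Fth1 the nearest were Ckb (0.98), Retsat (0.97) and Slc25a4 (0.97), and these kept r of 0.94 to 0.97 without WT-A 1 and WT-A 2. For Ireb2 they included Smchd1 and Psme4 (0.99 each), which dropped to 0.81 and 0.75 without WT-A 3 and WT-A 4. The points share libraries, depth and GC-related deviations, and the genes were picked as the highest of all, so these values are descriptions.

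The genes most like Slc11a2 included Ampd2 (0.91) and Gprc5c (0.91). Ftl1 was most like Capn1 (0.90), Zfp707 (0.89) and Mien1 (0.88), and Hfe most like Myo1f (0.85), Chrm3 (0.82) and Cd37 (0.81). Slc40a1 was nearest to Pde8b (0.78), Nrep (0.78) and Utp14b (0.76), and the r of Nrep was 0.49 without WT-S 1 and TTP-A 3. Between the members themselves, Hamp and Tfrc had r = -0.77 over all libraries but -0.06 around the group means.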

How the data were processed

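The table the authors deposited gives raw read counts, as whole numbers, for each gene symbol in 16 libraries. The submitters' processing notes name STAR 2.7.0f, featureCounts, Subread 1.6.4, DESeq2 and build mm10, with no roles. Annotation, strandedness and the handling of multi-mapping reads are not given in the sources used here.

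The 8 members and all lists were chosen with earlier results of these data known. Groups and replicate numbers came from sample titles. Counts were filtered with filterByExpr, scaled by TMM and fitted with edgeR 4.0.16 (R 4.3.3) by quasi-likelihood, with a mean per group over all libraries. P-values were adjusted by Benjamini-Hochberg over 15385 genes, at a threshold of 0.05. SE is implied by the log2 difference and its test statistic. On data simulated for WT-A against WT-S (15267 genes), 91% of 100 genes changed by an absolute log2 value of 1 were called. In the simulation 7 unchanged genes were called as well. Recovery of changes smaller than 1 was not tested. Replicate pairs differed beyond sampling noise (chi-square per degree of freedom 4.69 to 89.5).

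Named were the 8 members, list genes called in a tested comparison (at most 6 a list, by size), a fixed set of hepcidin regulators, and the genes most correlated with each member (5 for Hamp, 3 for the others). Of these, 2 are not reported here. Correlations used log2 CPM (prior count 2) among genes with a mean CPM of at least 1. GC content came from principal GENCODE M21 transcripts, found for 15211 (98.9%) of the genes tested. Alternatives were DESeq2 1.42.0 (size factors and Wald test), limma 3.58.1 voom with sample weights, 2 other filters, fits of only the groups compared, a replicate block, GC offsets (loess span 0.5), 14 libraries and leaving out each library.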

Additional observations from a re-analysis of the deposited data

Results flagged for a closer look

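Each of 36 sets of 4 libraries (the 8 members and Hamp2 in 4 groups) was tested for a library far from the other 3 with Dixon's ratio, and 3 exceeded its 95% critical value for 4 values. Chance alone marks about 1 in 20 sets. In TTP-A, Tfrc stood at 121 CPM in library 1 and at 160 to 166 CPM in the others (ratio 0.879). Slc11a2 stood at 16.6 CPM in WT-S 2, where the other 3 libraries all held 17.9 CPM (ratio 0.954). In TTP-A 2, Slc11a2 was at 16.4 CPM, against 19 to 19.1 CPM (ratio 0.953), and the A against S difference of Slc11a2 in TTP mice passed the threshold without that library. No interaction was called for a member with 16 libraries.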

How the results depend on the processing

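Hamp rests on 2 to 67 counts a library, which limits every value given for it. Of the 7 other members, 1 was called in WT-A against WT-S, 2 with DESeq2, voom or GC offsets, and 1 to 2 on leaving out a library, when 18.8%, 22.9%, 19.5%, 15.4% and 8.11% to 32.2% of all genes were called. In TTP-A against TTP-S the 0 called became 1 with DESeq2, only the groups compared, 14 libraries or GC offsets, 4 with voom (Tfrc, Slc11a2, Fth1 and Ftl1), and 0 to 1 on leaving out a library. Of all genes 2.9% were called there, 5.61% with DESeq2, 8.05% with only the groups compared, 6.26% with 14 libraries, 5.09% with GC offsets, 15.2% with voom and 0.387% to 6.04% on leaving out a library. In TTP-S against WT-S the 0 became 1 (Tfrc) with DESeq2 (0.663% of all genes). For the interaction it stayed 0 in all 24 alternatives.

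List genes called in WT-A against WT-S numbered 12 (16%), 5 with only the groups compared (6.76%, and 4.49% of all genes) and 4 to 20 on leaving out a library (5.33% to 26.7%). In TTP-A against TTP-S they numbered 2 (2.67%), 7 with DESeq2 or 14 libraries (9.33%), 20 with voom (26.7%), 9 with only the groups compared (12%), 4 with GC offsets (5.33%), and 1 to 8 on leaving out a library (1.33% to 10.7%). The share of all genes moved with these settings as given above, and nothing is read from these counts about iron genes. In TTP-S against WT-S the 0 became 2 with DESeq2 and 3 with voom (0.663% and 1.14% of all genes), and for the interaction 3 with DESeq2, 1 with voom or 14 libraries (1.81%, 1.11% and 0.295% of all genes), and 0 to 1 on leaving out a library. The cause of these shifts was not tested.

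Signs turned for Ftl1 in WT-A against WT-S (-0.02 with voom, -0.06 with 14 libraries, -0.08 with GC offsets) and for Ireb2 there (0.02 with 14 libraries, 0.07 with GC offsets). Ireb2 between TTP-A and WT-A was 0.38 and turned to -0.04 with 14 libraries and with GC offsets. Interactions turned for Hfe (-0.04, and 0.05 with voom), Tfrc (-0.05 with 14 libraries, -0.12 with GC offsets) and Ireb2 (0.33, and -0.09 and -0.11). On leaving out a library, interactions spanned -0.14 to 0.12 for Slc40a1, -0.02 to 0.09 for Fth1 and -0.11 to 0.04 for Hfe.

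The replicate block left the members called at 1, 0, 0 and 0 and moved the list count in TTP-A against TTP-S from 2 to 4. Replicate numbers did not pair the libraries: same-numbered pairs had residual correlations of -0.51 to 0.33, and 3 of 16 libraries correlated best with their own number.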
